A study of Mus musculus with 2 samples.

Results

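The semaphorins and ephrins and their receptors, the plexins and Eph receptors, are guidance proteins of the cell surface. They were taken as all protein-coding genes of the RefSeq annotation of the mouse build mm10 (GRCm38.p6) whose symbols begin with Sema3 to Sema7, Plxn, Epha, Ephb, Efna or Efnb. This gave 51 of 21887 genes, namely 20 semaphorins and 8 ephrins (28 ligands) and 9 plexins and 14 Eph receptors (23 receptors). Each was examined for peaks of the DNA-binding protein DPPA2, mapped by chromatin immunoprecipitation and sequencing (ChIP-seq) with an antibody to Dppa2. A gene counted as having a gene-end peak when a peak summit lay within 1 kb of either end of the gene, and as having an inside peak when a summit lay further in. The 16 untreated and 45 adriamycin peaks described here were chosen by their measured summit positions, and the families were proposed with results of these data known. The counts and levels are therefore a description, with no test.

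The cells were R1/E, a single mouse embryonic stem cell line, p53+/+ and grown on gelatin with serum and leukemia inhibitory factor. The untreated group is 1 library from cells labelled WT and control. The adriamycin group is 1 library from the same line after 8 h of adriamycin (doxorubicin, which traps topoisomerase on cut DNA), a treatment the labels call apoptosis induction (its genotype entry repeats the treatment, and p53+/+ is taken from the series' design). Both carry the same batch entry, neither has a replicate, and a peak list holds no expression by which markers of the cell type could be checked.

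Semaphorins act as ligands of plexins, which switch off small GTPases of the Ras family and so make a growing cell process turn away. The secreted class 3 semaphorins mostly need a neuropilin as co-receptor, and the other classes are largely bound to the membrane. Ephrins are tethered to the membrane, the A class by a lipid anchor and the B class by a transmembrane segment. They bind Eph receptor tyrosine kinases on a touching cell, and signals then run into both cells. These families are best known from axon guidance and blood vessel growth, and Eph receptors and ephrins are also found on embryonic stem cells. DPPA2 is a SAP-domain protein of pluripotent cells that works with DPPA4 and is known from CpG-rich promoters of developmental genes.

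Promoters of members with a gene-end peak near a listed start site are shown first, the 8 with the highest-ranked folds, because their base composition is a property that the choice of peaks did not use. Each line gives 250 bases before to 50 bases after a RefSeq start site in build GRCm38.p6, written 5′ to 3′ along the gene, with CpG dinucleotides in capitals. Plxnc1, Plxna2 and Ephb2 had a start peak in both lists. Sema3c, Sema7a, Sema4f, Sema6b and Efnb2 had one with adriamycin alone. Ephb6 was added after its values were seen, because its summit fell inside the window printed. Apart from it, only the upstream Efnb2 summit lies inside a printed window. The windows of Plxnc1, Plxna2, Ephb2 and Sema4f overlap none of their called peaks. The lines therefore show promoters near peaks and not the sequence under the peaks. Of the 13 members with a summit within 1 kb of a listed start, Efna2 and Sema3e ranked lower by fold and Plxnb1 and Sema4a had counted as inside the gene at that summit, so these 4 are not printed.
Plxnc1, chr10:94944796-94945095, minus strand: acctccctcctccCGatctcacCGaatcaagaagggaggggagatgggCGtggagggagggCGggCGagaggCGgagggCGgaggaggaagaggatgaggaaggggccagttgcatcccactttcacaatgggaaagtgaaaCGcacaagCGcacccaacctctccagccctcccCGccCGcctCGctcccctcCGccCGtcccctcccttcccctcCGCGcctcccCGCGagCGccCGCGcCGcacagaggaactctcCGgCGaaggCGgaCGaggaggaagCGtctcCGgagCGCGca
Plxna2, chr1:194619579-194619878, plus strand: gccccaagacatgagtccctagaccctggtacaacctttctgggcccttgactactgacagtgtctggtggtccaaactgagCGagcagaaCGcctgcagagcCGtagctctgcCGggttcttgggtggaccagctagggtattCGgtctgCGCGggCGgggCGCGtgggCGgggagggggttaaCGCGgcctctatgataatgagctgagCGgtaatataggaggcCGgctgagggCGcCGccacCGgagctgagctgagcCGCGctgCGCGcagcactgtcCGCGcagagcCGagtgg
Ephb2, chr4:136835963-136836262, minus strand: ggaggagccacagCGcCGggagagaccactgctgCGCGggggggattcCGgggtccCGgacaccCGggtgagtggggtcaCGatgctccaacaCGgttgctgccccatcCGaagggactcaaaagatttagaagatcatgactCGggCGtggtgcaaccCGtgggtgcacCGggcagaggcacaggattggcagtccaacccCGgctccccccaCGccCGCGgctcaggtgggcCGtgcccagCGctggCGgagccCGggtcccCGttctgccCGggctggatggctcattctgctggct
Sema3c, chr5:17574566-17574865, plus strand: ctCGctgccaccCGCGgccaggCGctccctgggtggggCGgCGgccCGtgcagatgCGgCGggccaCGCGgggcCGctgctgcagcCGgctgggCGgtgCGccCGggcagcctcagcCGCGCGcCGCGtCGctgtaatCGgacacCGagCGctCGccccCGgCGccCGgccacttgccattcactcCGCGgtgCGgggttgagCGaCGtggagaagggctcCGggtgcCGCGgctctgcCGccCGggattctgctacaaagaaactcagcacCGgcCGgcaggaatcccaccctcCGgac
Sema7a, chr9:57939862-57940161, plus strand: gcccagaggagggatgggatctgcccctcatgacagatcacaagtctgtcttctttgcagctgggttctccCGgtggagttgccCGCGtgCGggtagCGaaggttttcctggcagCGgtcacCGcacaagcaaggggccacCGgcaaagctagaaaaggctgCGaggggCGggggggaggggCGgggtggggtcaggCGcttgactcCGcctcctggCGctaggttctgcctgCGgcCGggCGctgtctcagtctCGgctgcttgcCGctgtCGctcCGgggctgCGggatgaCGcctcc
Sema4f, chr6:82939720-82940019, minus strand: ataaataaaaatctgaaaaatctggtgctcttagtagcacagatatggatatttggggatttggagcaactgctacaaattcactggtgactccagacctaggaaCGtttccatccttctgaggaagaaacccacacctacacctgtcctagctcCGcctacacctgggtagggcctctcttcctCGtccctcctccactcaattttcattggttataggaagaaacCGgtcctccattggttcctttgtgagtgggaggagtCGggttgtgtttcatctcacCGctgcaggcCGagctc
Sema6b, chr17:56140294-56140593, minus strand: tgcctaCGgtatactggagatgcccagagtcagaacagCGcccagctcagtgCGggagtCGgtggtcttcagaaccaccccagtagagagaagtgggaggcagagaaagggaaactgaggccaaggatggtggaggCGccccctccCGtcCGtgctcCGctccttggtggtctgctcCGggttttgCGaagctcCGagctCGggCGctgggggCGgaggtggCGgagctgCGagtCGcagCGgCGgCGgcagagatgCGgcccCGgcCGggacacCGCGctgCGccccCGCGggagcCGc
Efnb2, chr8:8661193-8661492, minus strand: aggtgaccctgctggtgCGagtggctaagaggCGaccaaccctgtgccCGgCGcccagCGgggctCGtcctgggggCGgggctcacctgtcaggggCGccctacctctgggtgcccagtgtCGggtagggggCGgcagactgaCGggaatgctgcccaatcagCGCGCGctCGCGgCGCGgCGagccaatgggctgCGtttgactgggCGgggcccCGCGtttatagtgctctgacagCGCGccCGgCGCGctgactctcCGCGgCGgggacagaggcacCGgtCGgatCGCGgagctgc
Ephb6, chr6:41605261-41605560, plus strand: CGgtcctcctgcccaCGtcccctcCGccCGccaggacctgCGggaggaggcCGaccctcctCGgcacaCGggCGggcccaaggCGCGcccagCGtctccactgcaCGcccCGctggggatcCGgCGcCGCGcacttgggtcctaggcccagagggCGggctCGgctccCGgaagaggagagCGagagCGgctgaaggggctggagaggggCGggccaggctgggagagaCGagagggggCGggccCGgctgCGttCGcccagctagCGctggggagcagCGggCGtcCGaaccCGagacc

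The windows printed were mostly rich in CpG. The Sema3c window held 42 CpGs and had a G+C share of 75.7%, the Efnb2 window 35 CpGs, the Ephb6 window 34 and the Plxnc1 window 30. The Sema4f window had the fewest of those printed, 7 CpGs, and a G+C share of 48.7%. Of the promoters not printed, that of Efna2 had 31 CpGs, that of Plxnb1 36 and that of Sema3e 11 (G+C share 50.7%). The GC box, spelled GGGCGG and searched on both strands, occurred 5 times in the Ephb6 window, 4 times at Plxnc1, 3 times each at Sema3c and Efnb2, 2 times each at Sema7a and Plxna2, and once at Sema6b. It did not occur in the Ephb2 or Sema4f windows. No window printed held a p53 half-site (the published decamer consensus, by name). That says only that these letters are absent from these windows.

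In the untreated list 5 of the 51 genes (9.80%) had a gene-end peak, where 5.78% of all protein-coding genes did. In the adriamycin list it was 14 of 51 (27.5%), where 16.0% of all genes did. All 5 of the untreated genes were also among the 14 (4.51% of all genes had a gene-end peak in each): the plexins Plxna1, Plxna2 and Plxnc1, the semaphorin Sema4d and the receptor Ephb2. Over all genes, 78.0% of those with an untreated gene-end peak had one with adriamycin. The other 9 were the semaphorins Sema3a, Sema3c, Sema3e, Sema4f, Sema6b and Sema7a, the plexin Plxnb1 and the ephrins Efna2 and Efnb2. Of all genes, 11.5% had a gene end called with adriamycin alone. The adriamycin list is the longer, 16229 peaks against 7043. When it was cut to its strongest 7043 peaks by −log10 q, only Plxnc1, Sema3c and Sema7a kept a gene-end peak there. That is 3 genes against 5 untreated, beside 5.72% and 5.78% of all genes. At equal length the adriamycin count was therefore no longer the higher, among members or among all genes. Since the families were proposed from these same data, nothing is read from the difference between the members' share and that of all genes.

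**Figure D1:**
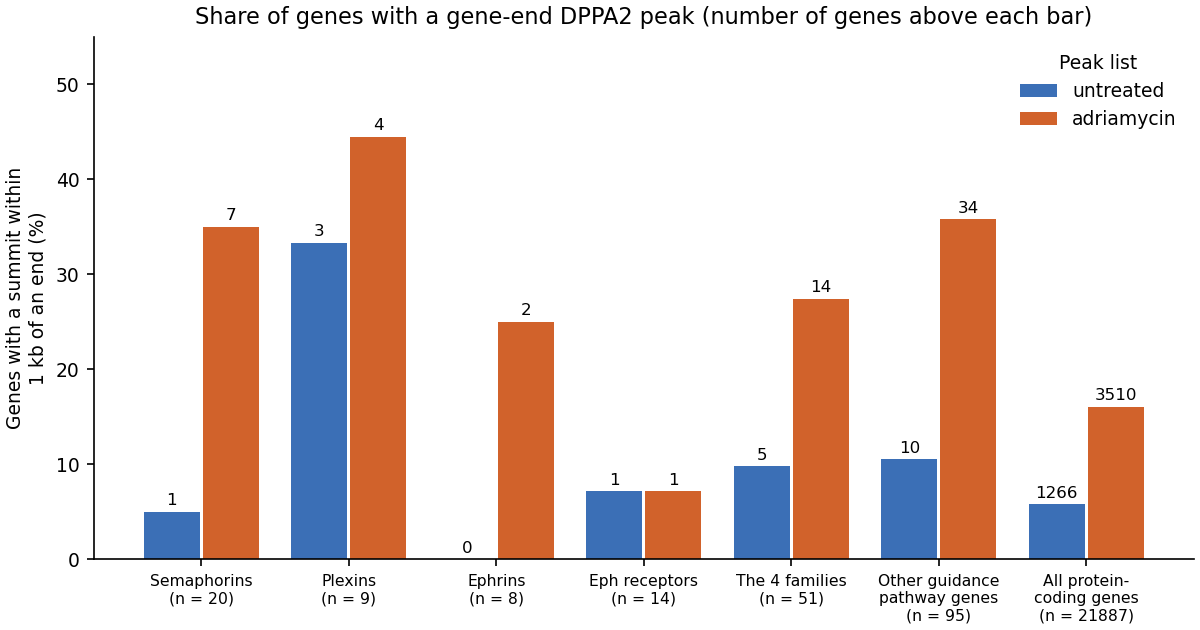
Share of genes with a summit within 1 kb of an end (y axis, %) in each family, all 4 families, the other guidance pathway genes and all protein-coding genes (x axis, with the number of genes), for the untreated (blue) and adriamycin (orange) lists, with the number of genes above each bar. Semaphorins go from 1 to 7 of 20 and Eph receptors have 1 of 14 in each list, beside 5.78% and 16.0% of all genes.

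Among the 28 ligands 1 (3.57%) had a gene end called untreated and 9 (32.1%) with adriamycin. Among the 23 receptors the numbers were 4 (17.4%) and 5 (21.7%), and among all genes 5.78% and 16.0%. With lists of equal length the adriamycin counts were 2 ligands (Sema3c and Sema7a) and 1 receptor (Plxnc1), beside 5.72% of all genes. The ligand count thus depends on the length of the list. By family these were 1 and 7 of the 20 semaphorins, 0 and 2 of the 8 ephrins, 3 and 4 of the 9 plexins, and 1 and 1 of the 14 Eph receptors. With 1 library per group these differences between families were not tested.

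Depth sets how these calls can be read. The number of sequenced fragments covering a summit, its pileup, was recovered from the fold and p-value of each peak. At the members' gene ends it was 13 to 18 fragments in the untreated list and 7 to 22 in the adriamycin list, over a genome-wide background of 1.19 and 1.03 fragments. Brackets after a pileup hold its exact Poisson 95% interval, which covers counting error only. Whether such intervals overlap between the lists is given as a description and is no test of a difference. The fold is the authors' caller's own enrichment over local background and describes a peak within its list. The median fold at the members' gene ends was 4.62 untreated and 4.39 with adriamycin, against 4.69 and 4.79 over all gene-end peaks. The 10 adriamycin peaks without an untreated counterpart had 7 to 18 fragments. The untreated list held no peak of fewer than 10 fragments where local background was 2.2 to 2.9, and none of fewer than 7 where it was under 1.3. The list gives no value for a gene under these limits, so a gene's absence from it shows no difference in binding.

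**Figure D2:**
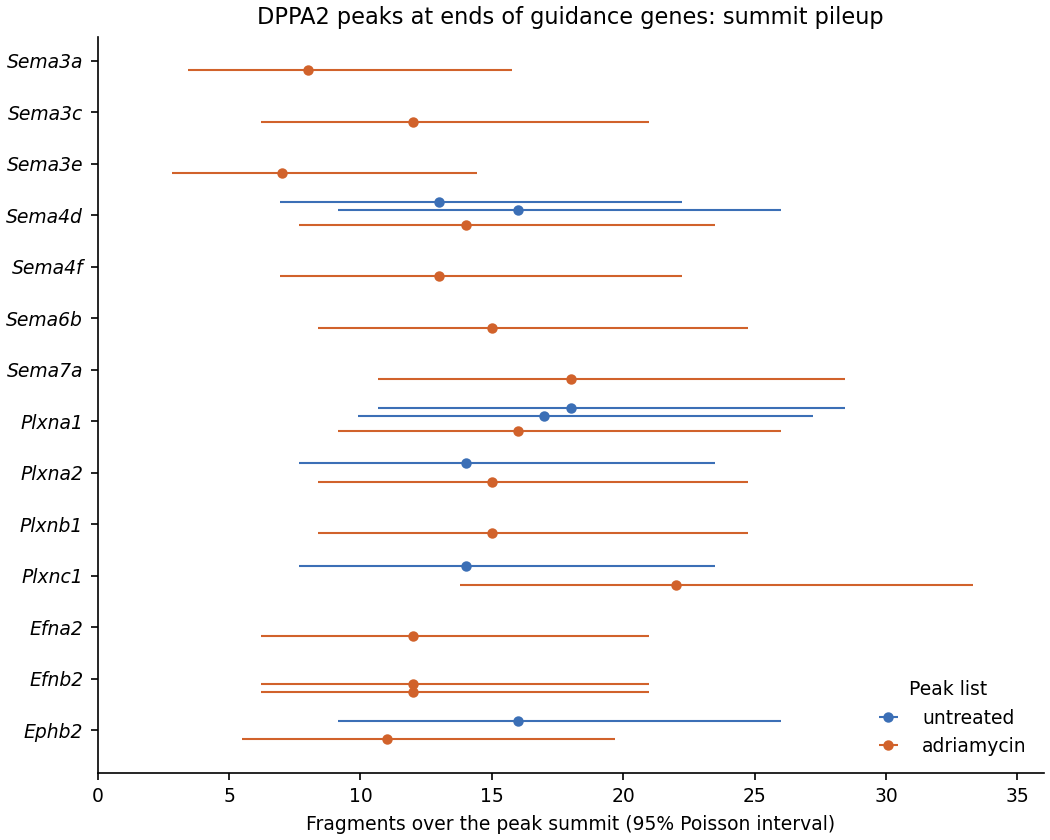
Fragments over the summit (x axis) of each gene-end peak at the 14 members that had one (y axis, semaphorins at the top, then plexins, ephrins and Ephb2), with exact Poisson 95% intervals, for the untreated (blue) and adriamycin (orange) lists. All 22 pileups lie between 7 and 22 fragments, and at the 5 members called in both lists the intervals overlap.

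Among the plexins, Plxna1 (chromosome 6, 89316313 to 89362613), a receptor for class 3 and class 6 semaphorins, was the member with a peak at each end. In the untreated list the peak at 89315865 to 89316146, just outside its lower-coordinate end, had 18 fragments (10.7 to 28.4) and a fold of 5.43. The peak at 89362012 to 89362608, inside its higher-coordinate end, had 17 (9.90 to 27.2) and a fold of 4.69. The adriamycin list held the second of these, at 89361939 to 89362503, with 16 fragments (9.15 to 26.0) and a fold of 4.36, but not the first, whose nearest adriamycin summit was 46413 bp away. The higher-coordinate peak also lies over and within 1 kb of an end of the protein-coding gene Gm40415, so it cannot be given to Plxna1 alone.

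Plxnc1 (chromosome 10, 94790866 to 94945015), the receptor of SEMA7A, had the highest gene-end pileup of the adriamycin list among the members. Its start peak had 14 fragments (7.65 to 23.5) untreated, at 94944481 to 94944741, and 22 (13.8 to 33.3) with adriamycin, at 94944350 to 94944779. The folds were 4.39 and 6.39, and the summits, 68 bp apart, lay 281 and 213 bp downstream of the listed start site. Plxna2 (chromosome 1, 194619791 to 194816869), another class A plexin, had 14 fragments (7.65 to 23.5) untreated and 15 (8.40 to 24.7) with adriamycin. Its folds were 4.31 and 4.94, and its summits lay 708 and 481 bp downstream of the start. At both genes the intervals of the pileups overlapped between the lists.

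Plxnb1 (chromosome 9, 109093849 to 109119915), a receptor of SEMA4D that acts through RhoA, had 3 peaks in the adriamycin list and none in the untreated list. The one that counted as a gene-end peak lay at the far end of the gene, 13 bp inside it, with 15 fragments (8.40 to 24.7) and a fold of 4.73. Another summit, counted as inside the gene because RefSeq's outermost start lies further out, was 271 bp downstream of a listed start site, with 13 fragments (6.92 to 22.2) and a fold of 3.95. The far-end summit had no untreated summit nearer than 195311 bp. Plxnd1 (chromosome 6, 115954811 to 115995339), the receptor of SEMA3E in blood vessels, had no gene-end peak. It had an inside peak in both lists, 14381 bp untreated and 14418 bp with adriamycin downstream of the listed start, with 17 fragments (9.90 to 27.2) and 22 (13.8 to 33.3), and folds of 4.69 and 5.48. Plxna3, Plxna4, Plxnb2 and Plxnb3 had no peak in either list.

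Among the semaphorins, Sema4d (chromosome 13, 51685529 to 51793678), the ligand of plexin B1 also known as CD100, was the member with a gene-end peak in both lists. The untreated list held 2 peaks at its 5′ end, with 13 (6.92 to 22.2) and 16 fragments (9.15 to 26.0) and folds of 4.07 and 4.89. A single adriamycin peak at 51793101 to 51793675 touched both, with 14 fragments (7.65 to 23.5) and a fold of 4.39. Its summit lay 81 bp from the nearer untreated summit. The promoter table lists Sema4d starts only further inside the gene, so no Sema4d promoter is printed.

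Sema3a, Sema3c and Sema3e, of the secreted class 3, had a gene end called with adriamycin and no untreated peak of any kind. Sema3c (chromosome 5, 17574816 to 17730268), known for its part in the outflow tract of the heart, had 12 fragments (6.20 to 21.0) and a fold of 5.86, 278 bp upstream of its start. Sema3a (13124822 to 13603485), the classic repellent of sensory axons, had 8 fragments (3.45 to 15.8) and a fold of 4.44, 885 bp inside its 5′ end. Sema3e (14025276 to 14256689), which acts on vessels, had 7 fragments (2.81 to 14.4) and a fold of 3.88, 311 bp downstream of its start. All lie on chromosome 5 and over a local background of 1.03 to 1.22 fragments, lower than the 1.6 to 2.9 at the other members' gene ends in this list. Sema3d, on the same chromosome, had no peak in either list.

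Sema7a (chromosome 9, 57939596 to 57962865), the lipid-anchored ligand of plexin C1 and of integrins, had the highest gene-end pileup among the semaphorins. In the adriamycin list its start peak at 57940060 to 57940512 had 18 fragments (10.7 to 28.4) and a fold of 5.59, 263 bp downstream of a listed start. Near its far end the adriamycin list held 2 more summits, 1502 and 2221 bp inside, with 16 fragments each, and the untreated list held 1, 1356 bp inside, with 15 (8.40 to 24.7). Sema4f (chromosome 6, 82911884 to 82939769), a membrane-bound semaphorin, had 13 fragments (6.92 to 22.2) and a fold of 5.38 with adriamycin, 277 bp downstream of its start. Sema6b (chromosome 17, 56123085 to 56140343), a ligand of class A plexins, had 15 (8.40 to 24.7) and a fold of 4.15, 71 bp downstream of its start. At Sema4f and Sema6b the nearest untreated summits were 75761 and 49513 bp away.

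Among the ephrins, the gene-end peaks were at Efnb2 and Efna2, both called with adriamycin alone. Efnb2 (chromosome 8, 8617235 to 8661242), the transmembrane ligand that marks arteries, had a peak on each side of its start. The summit 223 bp upstream lies within the promoter printed above, and the other lies 328 bp downstream. Each had 12 fragments (6.20 to 21.0), with folds of 3.96 and 3.99. Efna2 (chromosome 10, 80179482 to 80190010), a lipid-anchored ligand, had 12 fragments (6.20 to 21.0) and a fold of 3.57, 68 bp downstream of its start. Efnb1 and Efnb3, the other B-class ephrins, had inside peaks of 7 (2.81 to 14.4) and 14 fragments (7.65 to 23.5) with adriamycin, 1546 and 1984 bp from a gene end. Each of the 3 B-class ephrins therefore had an adriamycin peak at an end or inside, beside 30.2% of all genes. None had an untreated one, beside 13.2% of all genes. With lists of equal length none of these 3 kept an adriamycin peak. At that length 5.72% of all genes had a gene-end peak with adriamycin and 7.63% inside peaks alone. Efna5 (chromosome 17, 62602957 to 62881317) was the only member called untreated and not with adriamycin. That peak lay 18669 bp inside its 5′ end, with 10 fragments (4.80 to 18.4) and a fold of 5.02.

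Among the Eph receptors, Ephb2 (chromosome 4, 136647536 to 136836326), a receptor of B-class ephrins in axons and in the gut, was the only member of 14 with a gene-end peak, in both lists. The untreated peak at 136835642 to 136835906 had 16 fragments (9.15 to 26.0) and a fold of 4.62, and the adriamycin peak at 136835443 to 136835642 had 11 (5.49 to 19.7) and a fold of 3.19. These touch by 1 bp and their summits lie 298 bp apart, 191 and 489 bp downstream of a listed start. The lncRNA gene Gm31536 also has an end within 1 kb of both summits. Ephb6 (chromosome 6, 41603834 to 41620509), whose kinase domain is inactive, had an adriamycin peak of 18 fragments (10.7 to 28.4) and a fold of 6.55. It counted as inside by its distance of 1487 bp from the gene's outer end, yet it lay 190 bp upstream of the listed start. Of the 9 EphA genes none had a gene-end peak in either list, beside 5.78% of all genes untreated and 16.0% with adriamycin.

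**Figure D3:**
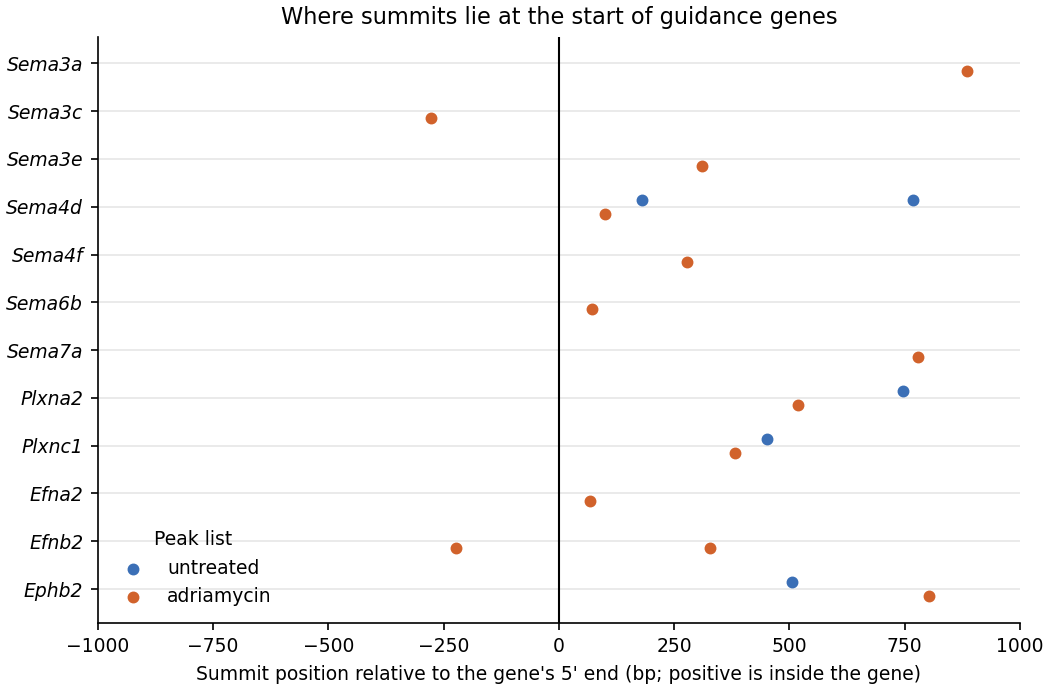
Position of each summit within 1 kb of a gene's 5′ end (x axis, bp from the 5′ end of the RefSeq gene, positive inside the gene) at the 12 members with such a summit and a known strand (y axis), for the untreated (blue) and adriamycin (orange) lists. Plxnb1, whose gene-end summit is at the far end, is not drawn, and all but the Sema3c summit and the upstream Efnb2 summit lie inside the gene.

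Gene-end summits lay at the start rather than the far end of the genes. Where the promoter table gives strand, 5 of 5 untreated and 13 of 14 adriamycin gene-end summits of the members were at the 5′ end, and all of the former and 11 of those 13 lay inside the gene. Over all genes 85.5% of untreated and 86.9% of adriamycin gene-end summits were at the 5′ end, and 84.8% and 83.8% of these lay inside the gene. Counted by listed start sites in place of gene ends, 3 members of the 45 in the table had a summit within 1 kb untreated and 13 with adriamycin (28.9%), beside 5.91% and 15.8% of all genes in the table. The 13 include Ephb6, Sema4a and Plxnb1, through summits that had counted as inside the gene. The summits nearest to the 1 kb limit were those of Sema4d (768 bp) and Plxna2 (746 bp) on the inner side and Sema7a (1356 bp) and Epha8 (2133 bp) beyond it in the untreated list. In the adriamycin list they were Sema3a (885 bp) and Ephb2 (803 bp), and Sema3f (1165 bp) and Ephb6 (1487 bp).

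Inside peaks were the only ones at a further 7 members in the untreated list (13.7%, beside 7.46% of all genes) and 15 in the adriamycin list (29.4%, beside 14.2%). The highest folds of the families were among these, deep within long genes. Epha6 (chromosome 16, 59641433 to 60610911), a neuronal Eph receptor gene of 969479 bp, had 3 inside peaks untreated and 4 with adriamycin. Its strongest, at 59891917 to 59892312 untreated and 59891901 to 59892220 with adriamycin, had 20 (12.2 to 30.9) and 23 fragments (14.6 to 34.5), with folds of 9.05 and 11.0 that ranked 309 of 7043 and 270 of 16229. Its 2 other shared peaks had 12 (6.20 to 21.0) and 11 fragments (5.49 to 19.7) untreated, and 13 (6.92 to 22.2) and 17 (9.90 to 27.2) with adriamycin. Another, of 12 fragments (6.20 to 21.0), was called with adriamycin alone. Sema6d (chromosome 2, 124089943 to 124667789), a membrane-bound ligand of class A plexins, had a peak 165353 bp downstream of its start with 20 fragments (12.2 to 30.9) untreated and 17 (9.90 to 27.2) with adriamycin, with folds of 8.33 and 7.03 and summits 6 bp apart.

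Apart from these and Ephb6, inside peaks of the members had folds of up to 5.76, that of a peak inside Plxnc1 with 15 fragments (8.40 to 24.7) with adriamycin. Epha5, a neuronal Eph receptor gene, had 11 fragments (5.49 to 19.7) and a fold of 5.71 with adriamycin. Epha8 had 15 (8.40 to 24.7) untreated and 22 (13.8 to 33.3) with adriamycin at overlapping peaks near its far end, over local backgrounds of 3.8 and 4.32 fragments, the highest at any member peak. Epha10 had a peak in each list, 19227 bp apart, with 17 and 12 fragments. Members with inside peaks with adriamycin and no untreated peak included Sema3f and Sema6a (2 each), and Sema4a, Sema4b, Sema5a and Sema5b (1 each), with folds of 3.36 to 5.31. The Sema4a summit lay 64 bp downstream of a listed start.

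Gene length goes with inside peaks, and these families are long. Their median length was 29.0 kb, against 17.2 kb for all genes. Per Mb of gene interior the members held 1.35 inside summits untreated and 4.50 with adriamycin, against 2.25 and 5.91 over all genes. Of the 17 members under 20 kb, 0 had an inside summit untreated and 3 with adriamycin, beside 2.21% and 6.47% of all genes of that length. Of the 14 members of 20 to 100 kb it was 4 and 9, beside 10.2% and 23.5%. Of the 20 members of 100 kb or more, 3 had an inside summit untreated and 10 with adriamycin (15.0% and 50.0%), beside 30.8% and 56.2% of all genes of that length. Gene-end peaks were also commoner at long genes in general. They were at 3.84% and 10.5% of all genes under 20 kb, 7.33% and 20.7% of those of 20 to 100 kb and 10.4% and 28.6% of those of 100 kb or more. The members in these classes had 0 and 2 of 17, 1 and 5 of 14, and 4 and 7 of 20.

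**Figure D4:**
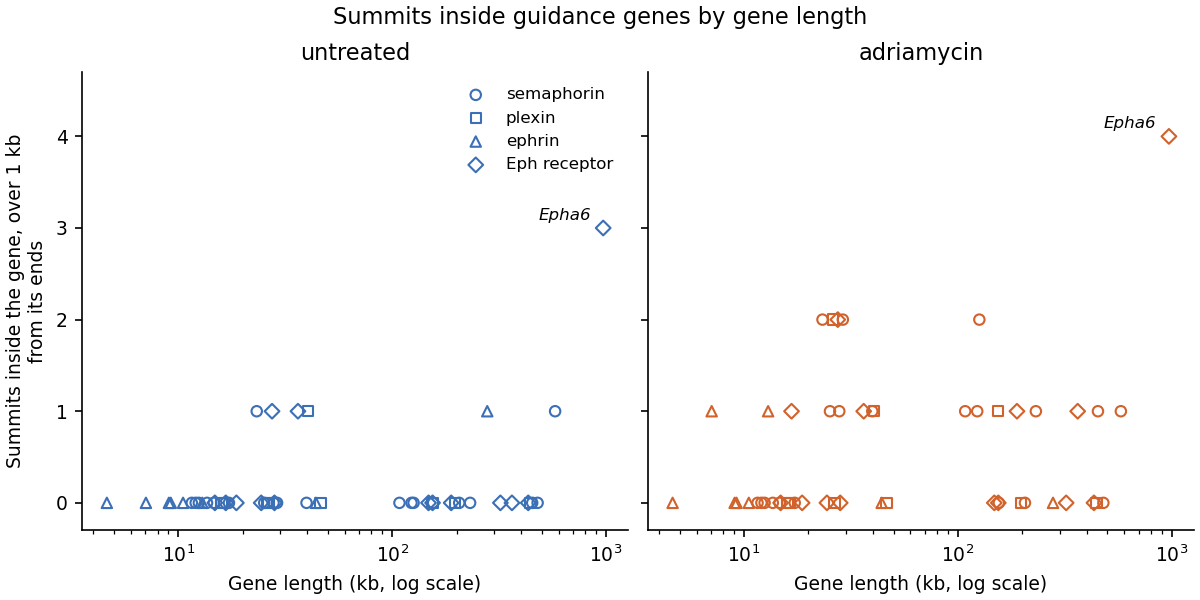
Number of summits inside each of the 51 genes and more than 1 kb from its ends (y axis) against gene length (x axis, kb, log scale) in the untreated (left) and adriamycin (right) lists, with a symbol for each family. Epha6, the longest, has 3 and 4, while 9 and 30 summits in all are spread over the families.

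With ends and insides together, 12 of the 51 genes (23.5%) had a peak untreated, beside 13.2% of all genes, and 29 (56.9%) with adriamycin, beside 30.2%. Across both lists 6983 of all 21887 genes had a peak at an end or inside, and 14904 had none. Among the 51 members 30 had one and 21 had none. The latter were 8 Eph receptors (Epha1, Epha2, Epha3, Epha4, Epha7, Ephb1, Ephb3, Ephb4), 6 semaphorins (Sema3b, Sema3d, Sema3g, Sema4c, Sema4g, Sema6c), 4 plexins and 3 ephrins (Efna1, Efna3, Efna4). The nearest adriamycin summit to an end of these genes lay between 1921 bp (Efna1) and 277314 bp (Plxna3) away, with a median of 52.4 kb.

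Of the 16 untreated peaks 13 overlapped an adriamycin peak by at least 1 bp, beside 79.7% of all untreated peaks, and 12 of the 45 adriamycin peaks (26.7%) overlapped an untreated one, beside 34.4% of all. When an overlap of 50% of each peak was asked for, 8 of the 16 untreated peaks had a counterpart, and with lists of equal length 7. Over 12 pairs of nearest overlapping peaks the pileups summed to 187 fragments untreated and 208 with adriamycin. Scaled to each library's genome-wide background, the ratio was 1.29 (95% interval 1.05 to 1.58, counting error only). The median ratio over these pairs was 1.25, and over all peaks called in both lists it was 1.32. Scaled to the 562 strongest shared peaks in place of the background, the members' ratio was 0.971 (0.793 to 1.19), so its direction depends on the scaling. No pair stood apart from equal pileups by itself. The highest ratio was that of Plxnc1, 1.82 (0.892 to 3.85), and the lowest that of Ephb2, 0.798 (0.335 to 1.83).

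Ligands and receptors known to bind each other are set side by side here, as pairs named after the values were seen. Of all genes, 5.78% had a gene-end peak untreated and 16.0% with adriamycin. SEMA7A and its receptor plexin C1 had start peaks of 18 and 22 fragments in the adriamycin list. For SEMA4D and plexin B1 the peaks there had 14 fragments at the ligand's 5′ end and 15 at the receptor's far end. EFNB2 and EPHB2 had 12 at each of the ligand's summits and 11 at the receptor's. In the untreated list the receptor genes Plxnc1 and Ephb2 and the ligand gene Sema4d had gene-end peaks, and Sema7a, Efnb2 and Plxnb1 did not. The class A plexin genes Plxna1 and Plxna2 had gene-end peaks with adriamycin, as did Sema3a, Sema3c and Sema6b of the ligand classes named above for such plexins. Some other known pairs were not called together at gene ends. The receptor genes Ephb1, Ephb3, Ephb4, Plxna3 and Plxna4 had no peak in either list. Efna2 had a gene-end peak with adriamycin, and no EphA gene had one. Sema3e had a gene-end peak with adriamycin while Plxnd1, its receptor, had inside peaks alone, and Nrp1 and Nrp2, co-receptors of class 3 semaphorins, had no peak in either list.

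The members' promoters were compared in CpG content with those of all genes. The RefSeq promoter table held 45 of the 51 members, and the promoters of Efnb3, Plxna1, Plxna4, Sema3b, Sema3f and Sema6a were not used here. The median member promoter had 22 CpGs in 300 bases (quartiles 14 and 28), against 13 (4 and 24) over all 17492 promoters, so the families as a whole lie toward the CpG-rich side. Of the 45, 12 had a summit within 1 kb of the outermost listed start in either list. Over all genes in the table such a summit was present at 5.54% untreated and 15.1% with adriamycin. The median of the 12 was 29.5 CpGs, against 18 in the 33 that had none. Among all promoters with such a summit it was 25. In the most CpG-rich class of promoters (22 CpGs or more) 3 of 23 members were called untreated and 10 of 23 with adriamycin, beside 10.9% and 30.4% of all promoters of that class. In the middle class (7 to 21 CpGs) it was 0 and 2 of 18, beside 5.07% and 13.9%. In the lowest class it was 0 of 4 in both, beside 1.30% and 2.78%. Whether CpG content sets which members are called was not tested, and not every CpG-rich member promoter was called. The Epha8 promoter had 56 CpGs, the most of any member, and the Efna5 promoter 38, and neither had a summit within 1 kb.

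**Figure D5:**
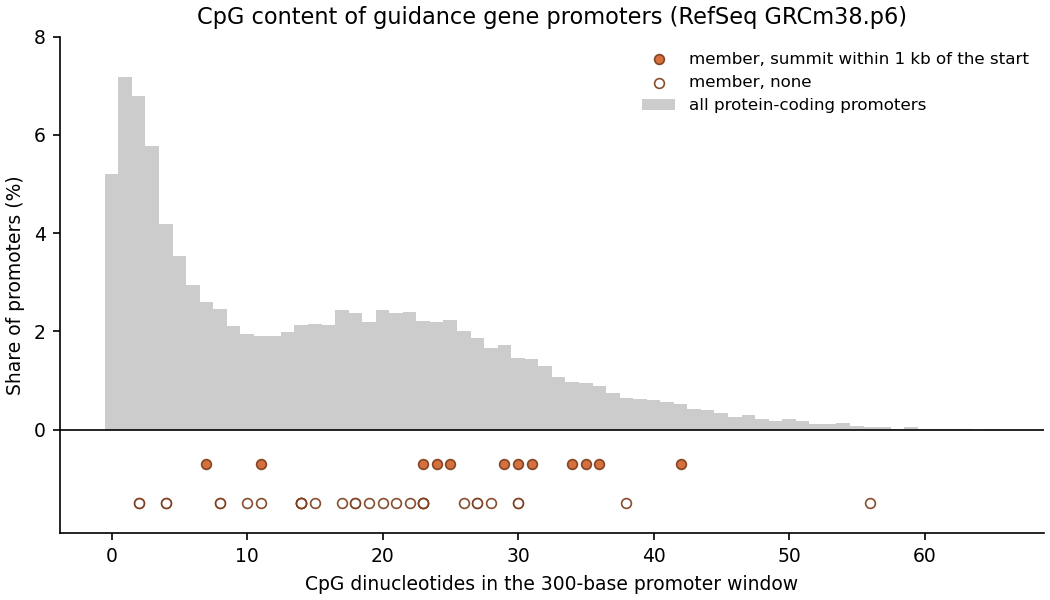
CpG dinucleotides in the 300-base promoter window (x axis) over all 17492 protein-coding promoters (grey bars, y axis, share of promoters in %) and for the 45 members in the table (circles below the axis, placed by CpG count with no y value). Filled circles are the 12 members with a summit within 1 kb of the start in either list, 10 of which have 23 CpGs or more, and open circles the 33 without.

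The GC box was present in 75.6% of member promoters and 46.3% of all promoters. It was in 10 of the 12 members with a summit at the start, beside 71.9% of all promoters with such a summit. The p53 half-site was present in 2 of 45 member promoters (4.44%) and 7.32% of all promoters. None of those 12 held it, beside 6.52% of all promoters with such a summit. Both are descriptions of letters in the window and say nothing of a bound factor.

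The other genes of these and neighbouring guidance pathways had gene-end peaks at 10 of 95 genes untreated (10.5%) and 34 of 95 with adriamycin (35.8%), beside the 5.78% and 16.0% of all genes. Of these, 9 were called in both lists, beside 4.51% of all genes. The 95 genes hold 17.6 Mb of gene interior, against 1009 Mb over all 21887 genes. Gene-end peaks were commoner at long genes in general, at 10.4% and 28.6% of those of 100 kb or more. The 95 genes were not counted by length class, and length as a cause of their share was not tested. Netrins and their receptors had 3 and 7 of 16, slits and their receptors and partners 3 and 3 of 11, ephrin and Eph signalling genes 4 and 14 of 27, semaphorin and plexin signalling genes 0 and 9 of 28, and neuropilins and other co-receptors 0 and 1 of 13.

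Dscam, a guidance receptor that can bind netrin, had 14 fragments (7.65 to 23.5) untreated and 18 (10.7 to 28.4) with adriamycin. Ntn5, of the netrin family, had 19 (11.4 to 29.7) and 25 (16.2 to 36.9), and Neo1, the receptor neogenin, 12 (6.20 to 21.0) and 17 (9.90 to 27.2). Slit3, a slit ligand, had 14 (7.65 to 23.5) and 22 (13.8 to 33.3), and Srgap1, a GTPase-activating protein that acts below Robo receptors, 13 (6.92 to 22.2) and 15 (8.40 to 24.7). Nell2, a ligand of Robo3, had 12 (6.20 to 21.0) in each. At each of these 6 genes the intervals of the pileups overlapped between the lists.

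Below the Eph receptors, Pick1, a PDZ-domain scaffold, had 15 fragments (8.40 to 24.7) untreated and 21 (13.0 to 32.1) with adriamycin. Rasa1, the Ras GTPase-activating protein that binds EphB2, had 2 untreated peaks of 10 (4.80 to 18.4) each and an adriamycin peak of 14 (7.65 to 23.5). Chn2, of the chimaerin family of Rac regulators, had 12 (6.20 to 21.0) and 16 (9.15 to 26.0). Adam10, the protease that cuts ephrins, was the gene whose end was called untreated alone, with 13 (6.92 to 22.2). By fold the strongest gene-end peaks of this class were, with adriamycin, at Sdcbp, the scaffold syntenin (7.20), Itsn1, an exchange factor scaffold (7.01), and Pick1 (6.79).

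Below the plexins the strongest gene-end peaks were at Farp1, an exchange factor bound by class A plexins (5.25), Rap1a, a small GTPase that plexins switch off (5.15), and Rac1 (4.89), where the gene end was called with adriamycin alone. Farp1 also had inside peaks, 2 untreated and 3 with adriamycin. Unc5c, a repulsive netrin receptor gene, had a gene-end fold of 5.47 with adriamycin, and Itgb1, the integrin beta 1 chain through which SEMA7A acts, one of 5.40. 

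Inside the pathway genes there were peaks of higher fold than any at their ends. Grip1, a PDZ-domain scaffold that binds B-class ephrins, had a peak with 30 fragments (20.2 to 42.8) and a fold of 10.9 untreated, and 38 (26.9 to 52.2) and 13.2 with adriamycin. Anks1b, an ankyrin-repeat protein, had 20 (12.2 to 30.9) and a fold of 9.05 untreated, and 14 (7.65 to 23.5) and 7.40 with adriamycin. At both genes the intervals overlapped between the lists.

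Robo1, a slit receptor, had an inside peak with 11 fragments (5.49 to 19.7) and a fold of 5.47 untreated and 29 (19.4 to 41.6) and 12.1 with adriamycin, with intervals that barely overlap. Slit1, a slit ligand, had 29 (19.4 to 41.6) and a fold of 7.94 untreated and 20 (12.2 to 30.9) and 5.47 with adriamycin near its lower-coordinate end. Inside Dscam the strongest peaks had 14 (7.65 to 23.5) and a fold of 5.64 untreated and 24 (15.4 to 35.7) and 10.8 with adriamycin. The strongest inside Unc5d, another repulsive netrin receptor gene, had a fold of 7.76 with adriamycin. Among the semaphorin and plexin signalling genes the strongest inside peaks, all with adriamycin, were in Dpysl2, of the CRMP family that acts below SEMA3A (7.69), Plxdc1 (6.98) and Mical3, of the MICAL family of actin oxidases (5.97). Nrcam, an adhesion molecule that can act with neuropilins, had one with 10 fragments (4.80 to 18.4) with adriamycin.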

How the data were processed

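DPPA2 ChIP-seq peaks of 1 untreated and 1 adriamycin library of R1/E cells were analysed. Tools named, per the submitters' processing notes, are Bowtie2 2.5.1, MACS3 3.0.0b1, SAMtools, deepTools 3.5.1 and FastQC 0.12.1, with build mm10. Not given in the sources used here: the calling command, read filters and input control. The authors deposited 1 peak list per library, with a fold ratio, −log10 p, −log10 q and a score per peak. The deposited values of another kind, distances from peak start to summit in bp, gave the summits.

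Unplaced contigs and the mitochondrial genome were left out (7043 of 7169 and 16229 of 16371 peaks kept). Summit fragments n and local background b were recovered as the whole n for which (n + 1)/(b + 1) gives the fold and a Poisson upper tail gives −log10 p within 0.001. This succeeded for 99.9% of peaks in each list, and for 100.0% of 400 simulated peaks at each of 3 backgrounds. Because the sources used here do not give the input control, whether folds are corrected for input was not determined. Genes came from RefSeq GRCm38.p6 (same build as mm10), and start sites and strand from its promoter table. No test was made, since each group has 1 library. The members, gene lists and alternatives were chosen with earlier results of these data known. Values are given in full for members with gene-end peaks and the strongest inside, and for pathway genes with gene-end peaks in both lists or among the 3 highest folds of their class at ends or inside. Python 3.11.15, numpy 2.4.6, pandas 2.3.3, scipy 1.17.1 and matplotlib 3.10.9 were used.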

Additional observations from a re-analysis of the deposited data

How the results depend on the processing

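No paired analysis was possible because each group has 1 library. Peaks were weak, so counts followed the threshold. At a q of at most 1e-05, 2.10% of all genes had a gene-end peak untreated and 7.12% with adriamycin. Gene-end members then numbered 2 and 5, and gene-end pathway genes 1 and 19. Members with inside peaks alone numbered 3 and 8, beside 4.04% and 8.82% of all genes. Overlapping member peaks were 4 in each list. At a fold of at least 5, gene-end members were 1 and 4 and pathway genes 1 and 19, beside 2.14% and 6.94% of all genes. Members with inside peaks alone were 3 and 7, beside 4.11% and 8.53%, and overlapping member peaks 3 in each list. With lists of equal length the adriamycin counts were 3 gene-end members and 15 pathway genes, beside 5.72% of all genes. There were 6 members with inside peaks alone, beside 7.63%, and 7 member peaks of each list overlapped. A window of 500 bp left 3 gene-end members and 5 pathway genes untreated, beside 4.08% of all genes. Listed start sites left 3 members untreated, beside 5.91%. An overlap of 50% of each peak left 8 untreated member peaks with a counterpart. The members' pileup ratio was 0.971 scaled to the strongest shared peaks. The other alternatives, among them a window of 2000 bp, local background under 5 times the genome-wide value, summits within 200 bp, unscaled pileups and, added after the data were seen, leaving out the Ephb2 pair that overlaps by 1 bp, stayed within 1.5 times the reported count or within the ratio's interval. Causes were not tested.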
